A study of Rattus norvegicus with 12 samples.

Results

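The S100 family was examined in INS-1 cells, which derive from a rat insulinoma and still secrete insulin. It was represented by the 9 genes S100a1, S100a3, S100a4, S100a6, S100a10, S100a11, S100a13, S100a16 and S100b. They were found by name among 28727 named entries of 1 count table, which held 16 S100 entries in all. These 9 members were selected on values over the same 4 groups described here, so their levels and differences are given as a description with standard errors and without p-values. The INS-1 832/13 cells had received an adenovirus for GFP, the control, or for ChREBPβ, the short and constitutively active isoform of the glucose-responsive transcription factor ChREBP, and had been kept in 2 mM or 11 mM glucose for 48 h. RNA-seq libraries were made from 3 samples of each of the 4 groups, which were GFP at 2 mM, GFP at 11 mM, ChREBPβ at 2 mM and ChREBPβ at 11 mM. The study describes the 3 as independent experiments. All 12 libraries came from 1 transformed line that carried a virus in every group, and the ChREBPβ virus encoded the mouse protein with an mCherry tag.

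S100 proteins are small proteins with a pair of EF hands, the helix-loop-helix motif that holds a calcium ion. Most form dimers, open a hydrophobic face when calcium rises and then bind a target such as an annexin, a cytoskeletal motor, a kinase or a channel, and several are also secreted and act on receptors such as Ager, the receptor for advanced glycation end products. Unlike calmodulin they are made in a cell-type restricted way, and in the rat most of their genes lie side by side on chromosome 2. S100 proteins are used as markers of glia, fibroblasts, melanocytes and myeloid cells rather than of β-cells, where calcium is the trigger of insulin release.

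Library totals ranged from 25754488 to 32938546 counts in GFP at 2 mM, from 36219167 to 46654823 in GFP at 11 mM and from 57088794 to 60531215 in ChREBPβ at 11 mM, while 1 of the 3 ChREBPβ libraries at 2 mM had 28595982 and the others 57313995 and 57726412. Counts were scaled by TMM (trimmed mean of M values) to CPM, counts relative to the library's effective size, which makes libraries of unequal depth comparable. A gene was called when it passed edgeR's quasi-likelihood test at 0.05 after Benjamini-Hochberg adjustment and differed at least 1.2-fold. Mlxipl, the rat gene for ChREBP, did not rise with the ChREBPβ virus but was at 256 ± 18.8 CPM (SD, n = 3) in GFP at 2 mM and 205 ± 6.63 CPM in ChREBPβ at 2 mM, and it therefore does not check the labels. Txnip, a ChREBP target, rose by 4.12 on the log2 scale at 2 mM (SE 0.05, edgeR adjusted p = 2.12e-21) and Pklr, another, by 1.69 (SE 0.05, adjusted p = 1.52e-16). The β-cell hormone Ins1 was at 11680 ± 928 CPM in GFP at 2 mM and 4310 ± 75.1 CPM in the libraries labelled ChREBPβ at 2 mM.

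S100a4, S100a3, S100a6 and S100a10 were higher in the libraries labelled ChREBPβ than in those labelled GFP at both glucose concentrations, while S100a1 and S100a13 stayed near their GFP level. Of the 9 members, 6 passed the filter on low counts, S100a16 and S100b had too few counts to be tested and S100a11 had none. At 2 mM, 4 of the 6 were called and all 4 were higher, beside 44.1% of all 14669 tested genes called in either direction, 21.0% higher and 23.2% lower. At 11 mM again 4 were called, all higher, beside 33.4% of all tested genes called, 14.3% higher and 19.1% lower. S100a6 passed the filter only through the groups where it was high, so these counts carry no weight as evidence about the family. The libraries of both groups did not overlap for 5 of the 6 members at 2 mM, S100a1 being the fifth and lower with ChREBPβ, beside 63.3% of all tested genes, and for 4 of the 6 at 11 mM, beside 56.1% of all tested genes. These are bulk measurements, in which fewer cells that express a gene and less RNA per cell cannot be told apart.

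**Figure D1:**
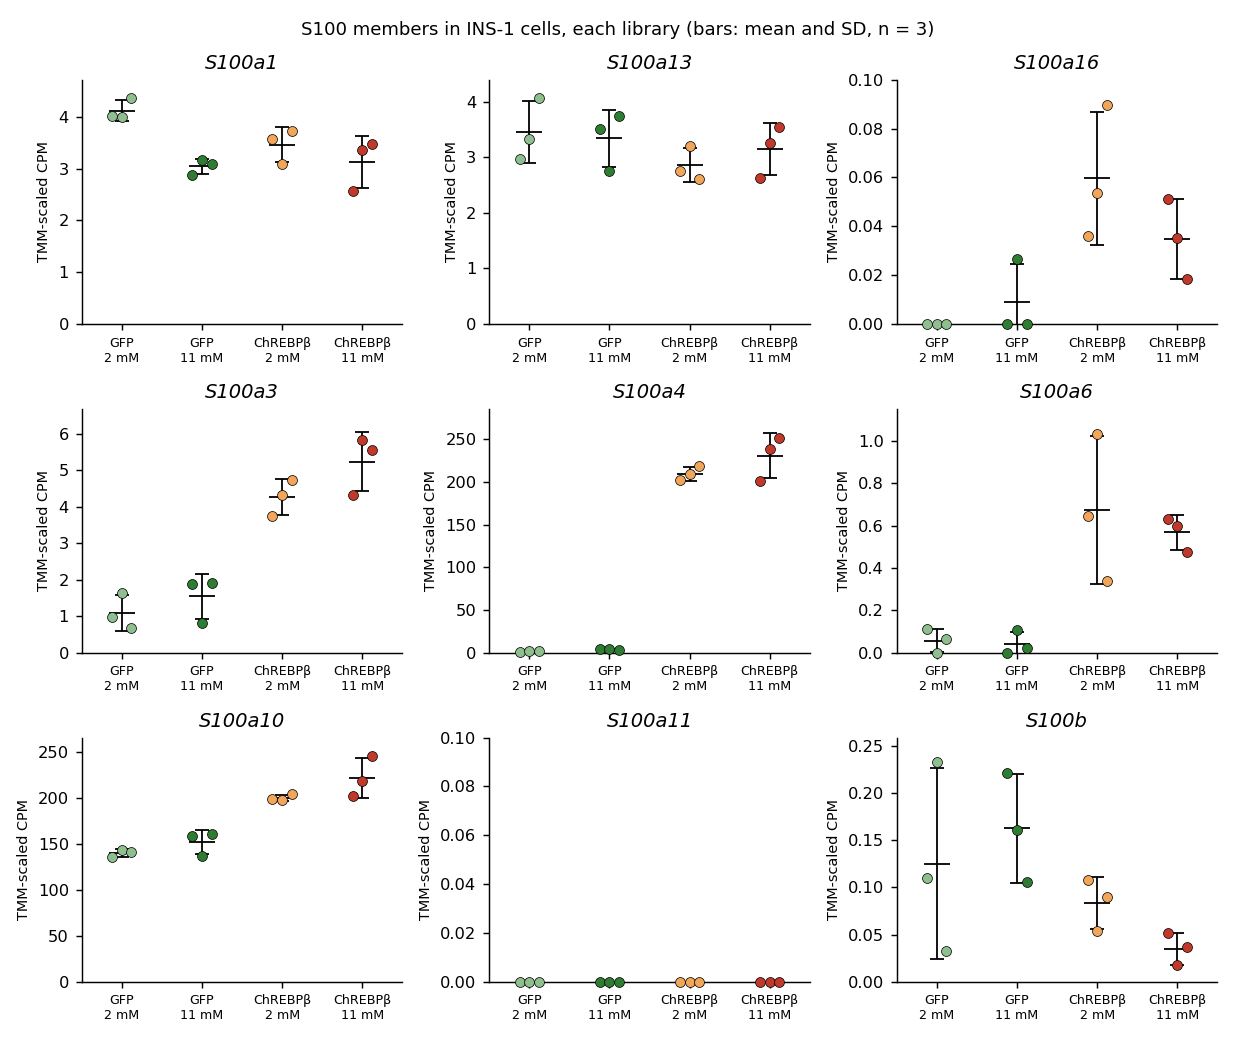
TMM-scaled CPM (vertical axes, linear from 0, a different scale in each panel) of the 9 members in each of the 12 libraries, grouped on the horizontal axes by virus and glucose; points are libraries, the bars their mean and SD. S100a4 lies at 1.21 to 4.05 CPM in the GFP libraries and at 201 to 252 CPM in the ChREBPβ libraries, S100a10 shifts by far less, and S100a11 is at 0 throughout.

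S100a4, which binds the heavy chain of non-muscle myosin and is known for its part in cell motility and metastasis, had the widest range of the family, with group means 7.27 apart on the log2 CPM scale. It was measured at 1.21, 1.57 and 1.57 CPM in GFP at 2 mM and at 4.05, 3.91 and 3.60 CPM in GFP at 11 mM. In ChREBPβ it was at 202, 209 and 218 CPM at 2 mM and at 201, 239 and 252 CPM at 11 mM. Every ChREBPβ library was far above every GFP library, and in GFP all 3 libraries at 11 mM were above all 3 at 2 mM, whereas the libraries of both ChREBPβ groups overlapped. In counts this was 33, 54 and 49 reads in the GFP libraries at 2 mM against 5647, 11736 and 12197 in the ChREBPβ libraries at 2 mM. The log2 fold change for ChREBPβ versus GFP was 7.16 (SE 0.11, a 143-fold difference) at 2 mM and 5.91 (SE 0.09) at 11 mM.

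Glucose alone also moved S100a4. From 2 to 11 mM in the GFP libraries its log2 fold change was 1.39 (SE 0.16, 2.62-fold), which was called, while in the ChREBPβ libraries it was 0.14 (SE 0.06) and was not called. Its ChREBPβ effect at 11 mM minus that at 2 mM was −1.25 (SE 0.17) on the log2 scale, which was called. The effect was thus smaller at 11 mM, where GFP cells started from a higher level. S100a4 was the only 1 of the 6 tested members called for this difference, beside 6.31% of all tested genes. The order of its group means was GFP at 2 mM, GFP at 11 mM, then ChREBPβ at 2 and at 11 mM, the last pair not separated beyond their spread.

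S100a3, a zinc- and calcium-binding protein best known from the hair cuticle, was low in all groups. It was measured at 0.992, 1.63 and 0.673 CPM in GFP at 2 mM and at 1.88, 0.830 and 1.92 CPM in GFP at 11 mM. In ChREBPβ it was at 3.76, 4.31 and 4.75 CPM at 2 mM and at 4.33, 5.84 and 5.54 CPM at 11 mM. No GFP library reached the lowest ChREBPβ library at either glucose concentration, and within each virus the libraries of both glucose concentrations overlapped. The log2 fold change for ChREBPβ versus GFP was 1.95 (SE 0.27) at 2 mM and 1.73 (SE 0.23) at 11 mM.

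S100a6, or calcyclin, a growth-inducible protein that binds annexins and the ubiquitin ligase adaptor Cacybp, was barely counted in GFP cells. The GFP libraries held 3, 0 and 2 reads at 2 mM and 0, 4 and 1 at 11 mM, and the ChREBPβ libraries 18, 58 and 19 at 2 mM and 37, 34 and 26 at 11 mM. All 6 ChREBPβ libraries were above all 6 GFP libraries, at 0.340 to 1.03 CPM against 0 to 0.110 CPM. Over the pooled counts of each group the ratio of ChREBPβ to GFP was 12.6 at 2 mM (95 against 5 reads, 95% exact interval 5.21 to 39.7) and 14.8 at 11 mM (97 against 5 reads, 6.12 to 46.6), where the intervals cover counting error only. The fitted log2 fold change was 3.57 (SE 0.71) at 2 mM and 3.78 (SE 0.69) at 11 mM. It depended on single GFP libraries, since it was 4.35 without GFP replicate a and 2.94 without replicate b at 2 mM, and 5.39 without GFP replicate b and 3.19 without replicate a at 11 mM.

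S100a10, also called p11, lacks a working calcium site and stays in the open form, in which it holds annexin A2 in a complex at the plasma membrane. It was well counted in every library, at 135, 143 and 141 CPM in GFP at 2 mM and at 159, 137 and 160 CPM in GFP at 11 mM. In ChREBPβ it was at 199, 198 and 204 CPM at 2 mM and at 202, 219 and 245 CPM at 11 mM. The ChREBPβ libraries were above the GFP libraries at both glucose concentrations, by a log2 fold change of 0.52 (SE 0.06, 1.43-fold) at 2 mM and 0.54 (SE 0.06, 1.46-fold) at 11 mM. Glucose gave 0.12 (SE 0.06) in GFP and 0.15 (SE 0.06) in ChREBPβ, neither of which was called. RefSeq lists 1 pseudogene of S100a10 in the rat, and whether reads were shared with it was not tested.

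**Figure D2:**
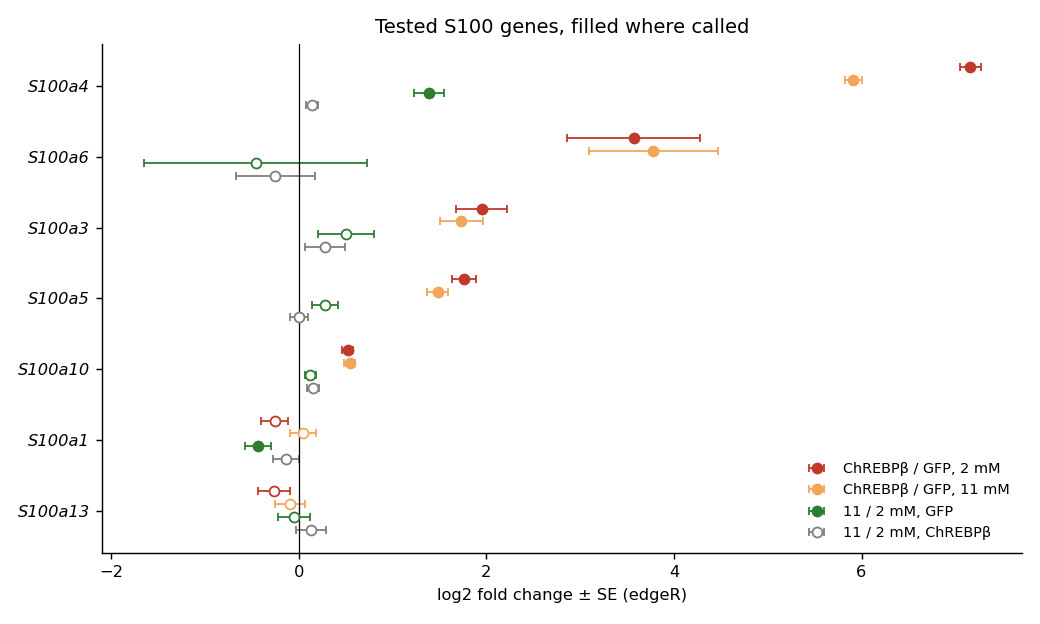
Log2 fold change with its SE (horizontal axis, edgeR) of the 6 tested members and of S100a5 (vertical axis) for ChREBPβ versus GFP at 2 and 11 mM and for 11 versus 2 mM glucose in each virus group; filled points were called. Both ChREBPβ comparisons lie to the right of 0 for S100a4, S100a6, S100a3, S100a5 and S100a10, and around 0 for S100a1 and S100a13.

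S100a1 in heart and muscle binds the ryanodine receptor and the calcium pump of the sarcoplasmic reticulum. It was the only tested member called lower between groups that differ in virus or glucose alone. It was at 4.01, 4.0 and 4.36 CPM in GFP at 2 mM and at 2.88, 3.16 and 3.09 CPM in GFP at 11 mM, so those groups did not overlap, and the log2 fold change was −0.44 (SE 0.14). This call was lost without GFP replicate c at 2 mM (−0.40) and without GFP replicate a (−0.40) or c (−0.45) at 11 mM. In the ChREBPβ libraries it was at 3.58, 3.08 and 3.73 CPM at 2 mM and at 2.56, 3.35 and 3.47 CPM at 11 mM, and neither ChREBPβ versus GFP (−0.26, SE 0.14, at 2 mM and 0.04, SE 0.14, at 11 mM) nor glucose in ChREBPβ was called. Between the groups that differ in both virus and glucose, ChREBPβ at 11 mM and GFP at 2 mM, its log2 fold change was −0.40 and was called. In that pair S100a4 (7.30), S100a6 (3.32), S100a3 (2.23) and S100a10 (0.67) were called higher and S100a13 (−0.14) was not called. This stands beside 50.5% of all tested genes called, 23.7% higher and 26.8% lower. S100a13, which helps to export FGF1 from cells, was between 2.61 and 4.07 CPM in all 12 libraries. Its libraries overlapped in every comparison and its log2 fold changes ran from −0.27 (SE 0.17) for ChREBPβ at 2 mM to 0.13 (SE 0.16) for glucose in ChREBPβ, with no call.

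For glucose in GFP, 2 of the 6 tested members were called, S100a4 higher and S100a1 lower, beside 20.2% of all tested genes. For glucose in ChREBPβ none of the 6 was called by edgeR, beside 3.87% of all tested genes. In that comparison S100a4 (0.14, SE 0.06) and S100a10 (0.15, SE 0.06) had the largest log2 fold changes relative to their SE. DESeq2 also called 0 of the members.

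The remaining members were at the limit of detection. S100b, the astrocyte and Schwann cell protein that signals through Ager, had 3, 8 and 1 reads in GFP at 2 mM and 10, 6 and 5 at 11 mM. In ChREBPβ it had 3, 3 and 5 reads at 2 mM and 3, 1 and 2 at 11 mM. At 11 mM the ChREBPβ libraries were all below the GFP libraries, with a pooled ratio of 0.218 (95% exact interval 0.0719 to 0.558), and at 2 mM the ratio was 0.608 (0.243 to 1.5). S100b was not tested with the filter used here. In each of the 5 alternative settings that kept it, it was called lower at 11 mM, with a log2 fold change of −2.12 to −2.11. These settings reuse nearly the same few reads. Where a filter was applied, S100b passed it only through GFP libraries, in which it was higher. The calls therefore carry no weight as separate evidence. S100a16, a widely expressed member, had no read in GFP at 2 mM, 1 read in GFP at 11 mM, 9 in ChREBPβ at 2 mM and 6 in ChREBPβ at 11 mM, summed over the 3 libraries. Against a floor of 3 counts over the group this was 1.99-fold higher at 2 mM, which leaves out the counting error of the 9 reads. At 11 mM the ratio was 4.57 with an interval from 0.555 to 210. Without a filter on low counts, the log2 fold change of S100a16 was 4.54 (SE 2.06) at 2 mM and 1.83 (SE 1.55) at 11 mM. Neither was called. S100a11, a partner of annexin A1, had 0 reads in all 12 libraries, which allows up to 0.0512 CPM in the deepest library and 0.110 CPM in the shallowest. RefSeq lists 5 pseudogenes of S100a11 and 2 S100a11-like genes in the rat, and whether the counting lost reads to such copies was not tested, so a count of 0 here does not show that the gene was silent.

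Of 10 other S100 symbols, 8 were in the table and 1, S100a5, passed the filter. S100a5, known from olfactory neurons, was at 2.76, 2.80 and 2.89 CPM in GFP at 2 mM and at 3.83, 3.21 and 3.19 CPM in GFP at 11 mM. In ChREBPβ it was at 9.78, 9.43 and 9.40 CPM at 2 mM and at 8.10, 9.56 and 10.9 CPM at 11 mM. It rose by 1.76 on the log2 scale with ChREBPβ at 2 mM (SE 0.13, edgeR adjusted p = 3.72e-10) and by 1.48 at 11 mM (SE 0.11, edgeR adjusted p = 1.70e-09), with every ChREBPβ library above every GFP library. Glucose gave 0.28 in GFP (edgeR adjusted p = 0.136) and 0.00 in ChREBPβ (edgeR adjusted p = 0.998) and neither passed. S100a8, a subunit of the myeloid protein calprotectin, had no reads in GFP at 2 mM and 0, 1 and 1 at 11 mM. In ChREBPβ it had 1, 15 and 2 reads at 2 mM and 7, 16 and 10 at 11 mM. Its ratio at 11 mM was 12.6 (95% exact interval 3.22 to 108). At 2 mM it was 3.98-fold higher against the floor, most of it from 1 library, and the counting error of its own reads is left out. Its usual partner S100a9 had no read in any library. S100g, the intestinal calcium-binding protein calbindin-D9k, went the other way, with 5, 1 and 2 reads in GFP at 2 mM and 2, 4 and 2 at 11 mM. It had none in ChREBPβ at 2 mM and 2, 0 and 0 at 11 mM. At 2 mM S100g was 4.02-fold lower against the floor, again without the counting error of the GFP reads. S100z had at most 2 reads in a library and S100a7a 2 reads in 1 library.

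Of the members called with ChREBPβ, all but S100a10 were neighbours. In RefSeq the order on chromosome 2 is S100a1, S100a13, S100a14, S100a16, S100a3, S100a4, S100a5, S100a6, S100a7a, S100a8 and S100a9. Thus the 4 consecutive genes S100a3 to S100a6 were all higher with ChREBPβ and the tested genes at the near end, S100a1 and S100a13, were not called. This order was looked at after the values were known. Among the 10 protein-coding genes before S100a1, 9 were tested, and their log2 fold changes ran from −0.91 to 0.44 at 2 mM and from −0.39 to 0.23 at 11 mM. At 2 mM 2 were called higher and 1 lower, and at 11 mM 2 were called lower, beside 44.1% and 33.4% of all tested genes called. None of the protein-coding genes on the far side of S100a6 within this window passed the filter. Neighbouring S100 genes do not overlap in the RefSeq annotation, where no pair of adjacent spans shared a base, but strand-specific counting was not given in the sources used here.

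**Figure D3:**
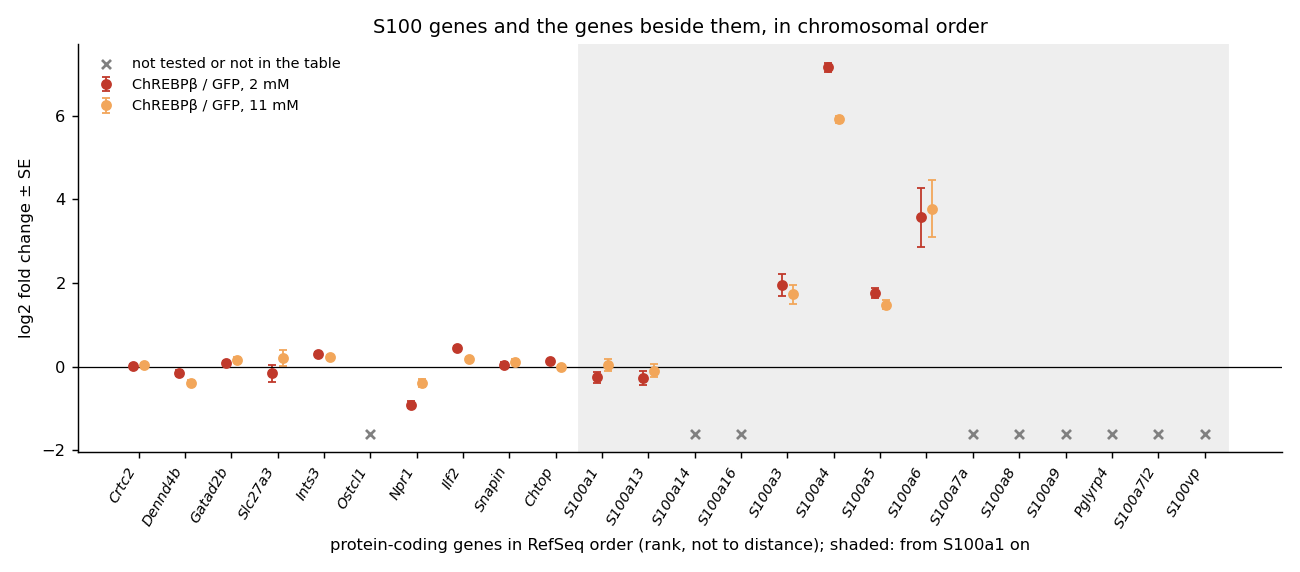
Log2 fold change with SE (vertical axis) for ChREBPβ versus GFP at 2 mM and 11 mM for S100 genes and the genes before them, in their RefSeq order along the chromosome by rank and not by distance (horizontal axis); crosses at the bottom are genes that were not tested or were not in the table and carry no value. S100a3, S100a4, S100a5 and S100a6 stand between 1.48 and 7.16, while the genes to their left lie between −0.91 and 0.44.

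The promoters of these 4 neighbours and of S100a13, which was not called, are shown so that the start regions of genes that differed together can be compared with that of a gene near them that was not called. Each line gives the 250 bases before the start of the gene in RefSeq (GRCr8), 5′ to 3′, with the GC box GGGCGG or its complement CCGCCC in capitals where it is present.
S100a3 (chr2:178384263-178384512, + strand): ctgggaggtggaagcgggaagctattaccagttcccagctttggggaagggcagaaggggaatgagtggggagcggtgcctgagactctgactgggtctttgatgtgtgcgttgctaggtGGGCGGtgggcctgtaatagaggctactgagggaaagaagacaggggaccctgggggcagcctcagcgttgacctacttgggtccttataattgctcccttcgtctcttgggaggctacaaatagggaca
S100a4 (chr2:178388279-178388528, + strand): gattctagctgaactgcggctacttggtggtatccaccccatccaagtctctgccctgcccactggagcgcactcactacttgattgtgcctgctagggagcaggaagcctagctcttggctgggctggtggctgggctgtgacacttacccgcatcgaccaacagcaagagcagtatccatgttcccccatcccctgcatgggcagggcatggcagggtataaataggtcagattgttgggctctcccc
S100a5 (chr2:178394871-178395120, + strand): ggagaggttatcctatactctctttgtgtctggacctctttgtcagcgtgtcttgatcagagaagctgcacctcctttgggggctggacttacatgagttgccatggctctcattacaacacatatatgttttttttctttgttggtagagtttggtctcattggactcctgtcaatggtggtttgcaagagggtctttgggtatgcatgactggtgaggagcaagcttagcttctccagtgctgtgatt
S100a6 (chr2:178398287-178398536, + strand): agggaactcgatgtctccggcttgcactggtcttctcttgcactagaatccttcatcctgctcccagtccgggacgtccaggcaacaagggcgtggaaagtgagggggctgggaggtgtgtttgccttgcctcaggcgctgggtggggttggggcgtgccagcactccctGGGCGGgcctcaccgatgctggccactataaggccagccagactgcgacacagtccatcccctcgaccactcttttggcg
S100a13 (chr2:178296770-178297019, + strand): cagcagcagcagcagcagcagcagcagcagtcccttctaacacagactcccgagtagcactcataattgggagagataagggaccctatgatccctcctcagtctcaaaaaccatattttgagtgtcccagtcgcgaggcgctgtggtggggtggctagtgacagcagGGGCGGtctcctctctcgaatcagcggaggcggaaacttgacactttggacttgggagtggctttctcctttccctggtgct
In windows from 250 bases before to 50 bases after the start, 7 of the 9 members had a RefSeq promoter, S100a1 and S100a10 being without one. The E box CACGTG, the core that ChREBP and its partner Mlx bind, was in none of the 7 nor in that of S100a5, against 6.42% of 33469 rat promoters. The paired form, with 5 bases between a pair of CACGTG, was in none of them and in 1 of the 33469 rat promoters. Only exact matches were searched. For so rare a pattern, absence from these few promoters was all but certain beforehand and says nothing about them. The AP-1 motif TGANTCA was also in none, against 7.33% of all promoters. At shares this low, so few promoters would often hold no E box or no AP-1 motif, so these absences do not set them apart. A GC box stood in 4 of the 7, those of S100a3, S100a6, S100a11 and S100a13, against 33.1% of all promoters, and lay 130 bases before the start in S100a3, 80 in S100a6 and 82 in S100a13. S100a4, with the largest difference, had none of the motifs searched. These are matches of letters in a short window on both strands, and no match says nothing about binding elsewhere.

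Across the 12 libraries the log2 CPM of the members that were higher with ChREBPβ went together, and the correlations are a description, since all libraries share the 4 groups and the depth that goes with them. Pearson's r between S100a4 and S100a5 was 0.99, between S100a4 and S100a10 0.95, between S100a4 and S100a3 0.93 and between S100a4 and S100a6 0.89, while between S100a4 and S100a1 it was −0.36 and between S100a4 and S100a13 −0.43. The 5 genes most like S100a4 among 10466 genes of at least 5 CPM on average were Rcan1, an inhibitor of calcineurin (r = 0.9990), the netrin receptor Unc5a (0.9985), the microtubule-binding Map7 (0.9985), Dtx1, a regulator of Notch (0.9984), and Psph, the last enzyme of serine synthesis (0.9984). They shared its shape and not its size. Dtx1 had group means of 4.45, 7.32, 147 and 152 CPM in GFP at 2 mM, GFP at 11 mM, ChREBPβ at 2 mM and ChREBPβ at 11 mM, a range of 5.08 on the log2 scale, and Rcan1 had 65.3, 88.4, 259 and 276 CPM, a range of 2.08.

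The genes most like the other members with a wide range had far narrower ranges themselves. S100a3, whose group means were 2.28 apart on the log2 CPM scale, was closest to Pfdn6 (r = 0.9824), Tmem44 (0.9757), Tarbp2 (0.9742), Txndc9 (0.9729) and Micalcl (0.9712). The widest of these, Tmem44, ranged over 0.93. S100a6, with a range of 3.1, was closest to Sik2 (0.9738), Bcr (0.9616), Shank3 (0.9585), AABR07006458.1 (0.9575) and Ints2 (0.9569), none of which ranged over more than 0.48. At the few reads that S100a6 had in GFP cells, its order within a group is set largely by counting.

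**Figure D4:**
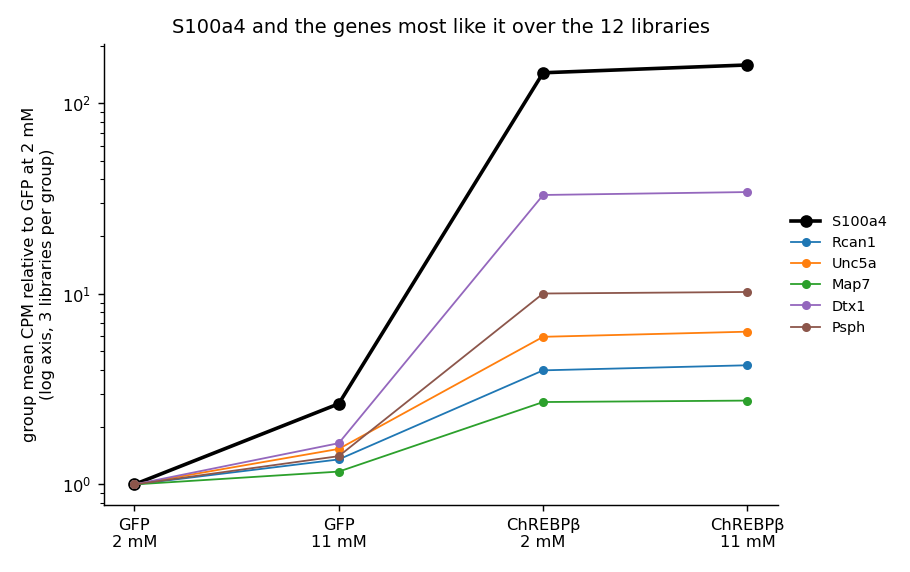
Group mean CPM of S100a4 and of the 5 genes with the highest Pearson r with it over the 12 libraries, each divided by its own mean in GFP at 2 mM (vertical axis, log scale), in the 4 groups of 3 libraries (horizontal axis). All 6 lines rise with glucose in GFP, rise again with ChREBPβ and are nearly level between the ChREBPβ groups, and S100a4 rises furthest.

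Among the receptors and extracellular partners of S100 proteins, 5 of 8 genes were tested. At 2 mM 2 were higher with ChREBPβ and none was lower, and at 11 mM 3 were higher and none was lower. Over all tested genes 21.0% were called higher and 23.2% lower at 2 mM, and 14.3% and 19.1% at 11 mM. The list had a median log2 fold change of 0.45 at 2 mM beside −0.0168 over all tested genes. Plg, for plasminogen, which S100a10 at the cell surface binds, was at 0.288 to 0.331 CPM in GFP at 2 mM and 1.44 to 2.26 CPM in ChREBPβ at 2 mM, and rose by 2.62 on the log2 scale (SE 0.29, edgeR adjusted p = 1.70e-07). Plat, for tissue plasminogen activator, rose with ChREBPβ at 2 mM by 0.51 (SE 0.12, edgeR adjusted p = 0.00145) and at 11 mM by 0.75 (SE 0.10, edgeR adjusted p = 4.68e-06). Plat also rose with glucose, by 0.75 in GFP (adjusted p = 8.28e-05) and by 0.99 in ChREBPβ (adjusted p = 5.30e-06), from 5.11 ± 0.817 to 10.3 ± 0.494 CPM in the latter (SD, n = 3 each; edgeR).

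All 20 intracellular targets on the list were tested. At 2 mM 3 were higher, 4 were lower and 13 were not called, and at 11 mM 5 were higher and 3 lower, with a median log2 fold change of 0.11 at 2 mM. Over all tested genes 44.1% were called at 2 mM and 33.4% at 11 mM. Kcnk3, the background potassium channel TASK-1 whose place at the plasma membrane depends on S100a10, went from 40.8 ± 2.73 CPM in GFP to 139.5 ± 8.74 CPM in ChREBPβ at 2 mM (SD, n = 3 each), a rise of 1.78 on the log2 scale (SE 0.06, edgeR adjusted p = 1.99e-15). Ahnak, a giant scaffold protein bound by the complex of S100a10 and annexin A2, was low, at 0.350 to 0.673 CPM in GFP and 0.713 to 1.61 CPM in ChREBPβ at 2 mM, and rose by 0.94 (SE 0.38, edgeR adjusted p = 0.0414). Ryr2, the ryanodine receptor that S100a1 binds, was at 27 ± 3.53 CPM in GFP and 13.1 ± 1.62 CPM in ChREBPβ at 2 mM, and fell by 1.03 (SE 0.12, edgeR adjusted p = 5.58e-07). Cacybp, the partner of S100a6, and Myh9, the myosin heavy chain bound by S100a4, which are named for that pairing and after their values were seen, had log2 fold changes at 2 mM of 0.17 and 0.39 and were not called (edgeR adjusted p = 0.00228, under the 1.2-fold minimum, and 0.0515). At 11 mM Myh9 rose by 0.47 (edgeR adjusted p = 0.0176), while Cacybp was at −0.01 (edgeR adjusted p = 0.898).

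Of 12 annexins, the phospholipid-binding proteins that many S100 dimers link, 7 were tested. At 2 mM 1 was higher and 3 were lower, and at 11 mM 1 was higher and 1 lower, with a median log2 fold change of −0.25 at 2 mM and −0.15 at 11 mM. Of all tested genes, 21.0% were higher and 23.2% lower at 2 mM, and 14.3% higher and 19.1% lower at 11 mM. Anxa2, whose protein is held by S100a10, was lower with ChREBPβ at 2 mM while S100a10 was higher. It was at 26.4 ± 0.733 CPM in GFP and 18.4 ± 1.74 CPM in ChREBPβ, and fell by 0.52 on the log2 scale (SE 0.08, edgeR adjusted p = 1.69e-05). At 11 mM its log2 fold change was −0.15 (edgeR adjusted p = 0.129) and was not called, and it fell by 0.59 with glucose in GFP (adjusted p = 1.28e-05). Anxa6 fell by 0.96 (SE 0.08, edgeR adjusted p = 1.73e-09) and Anxa4 by 0.42 (SE 0.05, edgeR adjusted p = 1.28e-06) at 2 mM. Anxa7 rose by 0.53 (SE 0.05, edgeR adjusted p = 1.60e-08), from 88.5 ± 2.65 to 128 ± 1.19 CPM.

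Of 42 calcium sensors and buffers outside the S100 family 34 were tested, of which 4 were higher and 15 lower with ChREBPβ at 2 mM, and 3 higher and 13 lower at 11 mM, with medians of −0.15 and −0.20 on the log2 scale. Over all tested genes 21.0% were called higher and 23.2% lower at 2 mM, and 14.3% and 19.1% at 11 mM. Vsnl1, the neuronal calcium sensor visinin-like 1, was at 10.8 to 11.1 CPM in GFP and 3.46 to 4.03 CPM in ChREBPβ at 2 mM and fell by 1.57 (SE 0.12, edgeR adjusted p = 9.05e-10). Necab1 fell by 1.36 (SE 0.15, edgeR adjusted p = 2.01e-07) and Necab2 by 1.05 (SE 0.06, edgeR adjusted p = 3.11e-12), both neuronal calcium-binding proteins. Nucb2, the precursor of nesfatin, fell from 501 ± 6.64 to 211 ± 7.51 CPM, by 1.25 (SE 0.04, edgeR adjusted p = 5.94e-15).

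**Figure D5:**
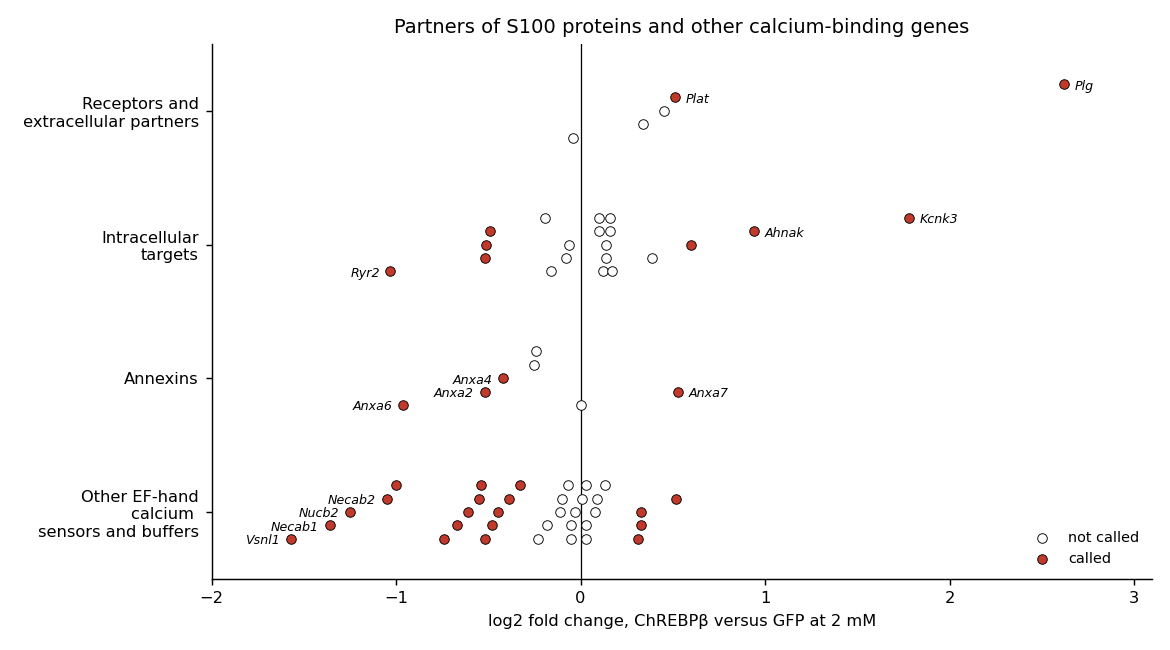
Log2 fold change for ChREBPβ versus GFP at 2 mM (horizontal axis) of every tested gene in 4 lists, the receptors and extracellular partners of S100 proteins, their intracellular targets, the annexins and other EF-hand genes (rows); filled points were called, and called genes described here carry names. Anxa2 appears in 2 of the lists, and the vertical offset within a row has no meaning. Plg stands furthest to the right at 2.62 and Vsnl1 furthest to the left at −1.57.

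Several S100 genes serve as markers of other cell types, so the marker lists of those cells are given beside them. Of the fibroblast markers, for which S100a4 is often used, Dcn and Lum had no read in any library and the means of Col1a1 and Col3a1 were at most 0.0954 CPM. The summed level of the 7 fibroblast markers in the table was lower in ChREBPβ, at 87.2 to 90.3 CPM at 2 mM against 189 to 196 CPM in GFP, most of it Thy1. Of the 3 fibroblast markers tested, Thy1 (−1.12, edgeR adjusted p = 3.31e-15) and Pdgfra (−1.12, edgeR adjusted p = 1.08e-06) were called lower at 2 mM. At 11 mM Thy1 was again called lower and Pdgfra was not called (−0.13). Pdgfrb was called higher at both concentrations, at 2 mM from 0.00972 to 0.656 CPM (edgeR adjusted p = 7.00e-06). It was barely counted in GFP and passed the filter only through the ChREBPβ libraries. Of the leukocyte markers, relevant to S100a8, Ptprc had no read in any library. The sum of the 5 in the table was 0.551 to 0.609 CPM in GFP at 2 mM and 0.806 to 1.40 CPM in ChREBPβ at 2 mM. At 11 mM this sum was 0.642 to 0.973 CPM in GFP and 0.982 to 1.32 CPM in ChREBPβ. Cd68 was called higher at 2 mM by 1.04 (edgeR adjusted p = 0.0243) but not at 11 mM (0.75, edgeR adjusted p = 0.0774). Csf1r, the other leukocyte marker tested, was not called and had log2 fold changes of −0.82 at 2 mM (adjusted p = 0.357 by edgeR) and 0.39 at 11 mM (adjusted p = 0.552 by edgeR). Of the glial markers, relevant to S100b, Sox10 and Gfap were at a mean of at most 0.0148 CPM in any group, and the sum of the 5, nearly all Mbp, was 85.4 to 94.9 CPM in GFP at 2 mM and 101 to 107 CPM in ChREBPβ at 2 mM. The endothelial and duct lists held 1 tested gene each, the first lower with ChREBPβ at both concentrations and the second not called at 2 mM and higher at 11 mM, with Cftr and Spp1 at 0. Of the other islet hormones, 1 of 2 tested genes was called, lower at both concentrations. Calls over all tested genes were 44.1% at 2 mM and 33.4% at 11 mM.

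Most β-cell markers moved the other way from S100a4. Of 12 tested, 10 were called lower and 1 higher with ChREBPβ at 2 mM and likewise at 11 mM. The 1 called higher was Slc2a2, by 0.50 at 2 mM and 0.46 at 11 mM on the log2 scale. The shares over all tested genes were 21.0% higher and 23.2% lower at 2 mM, and 14.3% and 19.1% at 11 mM. The summed level of the 14 β-cell markers in the table was 24090 to 26990 CPM in GFP at 2 mM and 12960 to 13350 CPM in ChREBPβ at 2 mM. What part these changes have in the levels of the S100 genes was not tested.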

How the data were processed

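Per the labels and the methods of the study, RNA was amplified and sequenced as 150 bp paired-end reads. The authors deposited raw counts of reads per gene for 12 libraries, without normalization. The submitters' processing notes name the build Rnor 6.0 and edgeR. The aligner, the counter and the strand setting were not given in the sources used here. The same table holds 4 columns of group means, which were not used, and 1 entry without a name (0.0043% to 0.006% of counts), which was left out. No column of other samples was present.

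Counts were filtered with filterByExpr by group, scaled by TMM and fitted in 1 quasi-likelihood model over the 4 groups with edgeR 4.0.16 in R 4.3.3, which tested 14669 genes. SE was taken as the log2 fold change over the square root of F. Log2 CPM used a prior count of 2. Of the 6 pairs of groups, the 4 that differ in 1 factor are described, with the difference of the ChREBPβ effects. From another pair only the log2 fold changes of the tested members are given. The procedure was tested on simulated data. Alternatives were DESeq2 1.42.0, other scalings, filters, fold minimums and samples, and a replicate block. The replicate letters showed no clear pairing of the samples, as libraries of the same letter deviated together with r between −0.114 and 0.052. Libraries of the same letter went together best throughout for ChREBPβ versus GFP at 2 mM and for glucose in ChREBPβ. For ChREBPβ versus GFP at 11 mM they never did. With 3 libraries per group, correlations this small cannot decide whether the samples were paired. Pooled counts were compared by an exact conditional interval.

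The members and the gene lists were chosen with earlier results of these data known. Named are all members, the other S100 genes with counts, at most 4 called genes per partner list with the largest change at 2 mM, and the 5 genes most like each member whose group means range over more than 2 in log2 CPM. A gene that this rule would name is not reported here. Promoters and gene order came from RefSeq GRCr8, another build than that of the counts, and protein sequences were not used here.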

Additional observations from a re-analysis of the deposited data

Results flagged for a closer look

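S100a4 was marked because the effect of ChREBPβ differed between the glucose concentrations. The ChREBPβ effect at 11 mM minus that at 2 mM was −1.25 (SE 0.17) on the log2 scale by edgeR's test of the difference itself. The gene rose with glucose in the GFP libraries by 1.39 and was already high in the ChREBPβ libraries at 2 mM.

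The same difference was −0.45 for Kcnk3 (edgeR adjusted p = 0.00132), which rose by 1.78 with ChREBPβ at 2 mM and by 1.32 at 11 mM. It was 0.34 for Nucb2 (edgeR adjusted p = 0.00147), which fell by 1.25 at 2 mM and by 0.91 at 11 mM. No group had enough libraries for a check of single libraries that stand apart.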

How the results depend on the processing

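The members called for ChREBPβ numbered 4 at each glucose concentration, and 3 to 5 under the alternatives, the fifth being S100a1 at 2 mM or S100b at 11 mM, both lower. The count was 3 when at least 10 counts were asked in every library, since S100a6 was then not tested. It was also 3 with a minimum fold change of 2, which S100a10 did not reach (log2 fold changes of 0.52 at 2 mM and 0.54 at 11 mM). With the replicate block it was 4 at 2 mM and 4 at 11 mM, 2 for glucose in GFP, 0 for glucose in ChREBPβ and 1 for the difference of the effects, so the block changed no count. For glucose in GFP the count was 1 with a minimum fold change of 2, where S100a1 was lost, and between 1 and 3 when each library was left out. It was lowest without GFP replicate c at 2 mM and without GFP replicates a or c at 11 mM, where S100a1 was lost, and highest without GFP replicate b at 2 mM or at 11 mM, where S100a3 was called (0.93 and 0.77). A tally of calls left out the other fold minimums, the difference of the effects, and S100a16 and S100b, which had no main call. Of the 475 log2 fold changes of tested members that remained, 469 kept their call, 3 lost it, 3 gained it and 0 turned a called direction. The third gain was S100a1 for ChREBPβ at 2 mM with unadjusted library totals (−0.35). Over all alternatives S100a4 lay between 7.06 and 7.22 at 2 mM and between 5.82 and 6.00 at 11 mM. Depth limits S100a6, S100a16, S100b, S100a8 and S100g, which rest on few reads.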
